A study of Homo sapiens with 12 samples.

Results

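The 42 genes described here are MYC and 41 genes of ribosome production, listed by name as nucleolar processing factors and RNA polymerase I genes. All 42 were found, once each, among the 32077 genes of the count table. They were followed by RNA-seq in PC3 and DU145, cell lines from human prostate cancer that are androgen-independent and were labelled as wild type. Each line was cultured for 48 hours in 6-well plates with vehicle or with 2.5 μmol/L pentamidine, an aromatic diamidine used against protozoa, with 3 samples in each of the 4 groups and 12 in all. The study used RNA-seq to look for the mechanism behind the growth inhibition by pentamidine. The labels do not say whether the 3 samples of a group came from separate cultures, so p-values measure the spread between these samples, which may be technical.

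MYC is a transcription factor that, paired with MAX, binds the E-box CACGTG and is known for driving cell growth, of which ribosome production is a large part. In the nucleolus, RNA polymerase I transcribes ribosomal DNA into a long precursor, with UBTF holding the gene open and RRN3 bringing the polymerase to the promoter. Small nucleolar RNPs then modify the precursor, and large assemblies of scaffold proteins and helicases cut and fold it into the small and the large ribosomal subunit. The members were grouped by these roles, with 6 genes of the RNA polymerase I machinery, 3 nucleolar chaperones and scaffolds, 4 proteins of the small nucleolar RNP (snoRNP) core, 15 factors of the small subunit and 13 of the large subunit.

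Promoter sequence is shown for UTP20 and NOL6, which fell far in both lines, and for DDX21 and UTP14A, which were called in opposite directions. These 4 members were picked after their values were seen. Holding the E-box was a condition for being shown, so its presence in all 4 was set by the choice. RefSeq (GRCh38.p14) held a promoter of 300 bases, from 250 before to 50 after the start, for 33 of the 42 members. Each line gives 30 bases 5′ to 3′ on the strand of the gene, with the E-box in capitals.
UTP20 (chr12:101280083-101280112, plus strand): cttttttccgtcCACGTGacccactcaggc
NOL6 (chr9:33473894-33473923, minus strand): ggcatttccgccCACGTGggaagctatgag
DDX21 (chr10:68956604-68956633, plus strand): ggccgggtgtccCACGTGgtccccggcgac
UTP14A (chrX:129905914-129905943, plus strand): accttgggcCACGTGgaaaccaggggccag

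The E-box began 10 bases before the start of UTP20, 31 before that of DDX21, 241 before that of UTP14A and 13 after that of NOL6. The motif CACGTG, which reads the same on both strands, was present in the promoters of 16 of the 33 members (48.5%), against 12.5% of 9808 protein-coding genes tested in either line, 10.9% of 15843 protein-coding genes and 8.77% of all 27305 promoters. Of its 17 occurrences in members, 15 began within 40 bases of the start and 11 at or after it. These matches are a description of the letters in this window. The members with the motif were, beside the 4 shown, MRTO4, WDR43, RRP9, GNL3, NOP14, BYSL, LTV1, NOP2, UTP4, UTP18, FBL and PES1. DDX18, BOP1, MYC, NOP58, NOLC1, POLR1E, RRS1, RRP12 and RRP1B had no promoter entry.

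Total counts ranged from 13514195 to 15131436 per sample, and the members together took 1.181% ± 0.013 (SD, n = 3) of the counts in vehicle-treated PC3 cells and 1.25% ± 0.0021 in vehicle-treated DU145 cells. Levels are given as normalised CPM, the counts scaled to a common library total with TMM factors over all 12 samples. The 3 PC3 vehicle samples differed more among themselves than those of other groups, with replicate 1 farthest from the others (mean chi-square per gene of 5.97 and 7.30, against 1.72 to 3.64 for all other pairs). Marker levels are given as CPM of the library total, without TMM factors. The epithelial keratin KRT18 was present in both lines at 145 CPM or more. KRT8, in contrast, stood at 16.2 to 21.5 CPM in PC3 cells and at 1835 CPM or more in DU145 cells. EPCAM, another epithelial marker, had at most 2 counts in any sample, as did the luminal gene KLK3. Of the markers of other cell types, the leukocyte gene PTPRC had at most 1 count, the endothelial gene PECAM1 at most 10 and the fibroblast collagen COL1A2 at most 2. COL1A1, another collagen, had 3 to 12 counts in PC3 cells, 36 to 40 in vehicle-treated DU145 cells and 25 to 29 in pentamidine-treated DU145 cells. The 13 mitochondria-encoded mRNAs fell from 3.35 to 3.50% of counts to 0.244 to 0.257% in PC3 cells and from 3.82 to 4.04% to 0.205 to 0.213% in DU145 cells, so the results were also computed without mitochondria-encoded genes.

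In vehicle-treated cells the most abundant members per kilobase of exon were the histone chaperone NPM1, the RNA-binding protein NCL (nucleolin) and the helicase DDX21. NPM1 stood at 582 ± 16.7 CPM per kb (SD, n = 3) in PC3 cells and 623 ± 10.1 in DU145 cells, NCL at 315 ± 17.2 and 339 ± 5.65, and DDX21 at 132 ± 4.3 and 158 ± 1.59. The least abundant were PPAN, at 1.29 ± 0.21 and 1.36 ± 0.18 CPM per kb, POLR1C, at 5.08 ± 0.70 and 5.41 ± 0.26, and DDX10, at 8.14 ± 0.18 and 7.10 ± 0.18. Several levels may mix genes, since the sources used here do not state whether counting used the strand or how shared reads were treated. PPAN, with 622 counts over all samples, shares 1447 exon bases with the read-through gene PPAN-P2RY11. Listed pseudogenes of NPM1 held 8.61% as many counts as NPM1, and those of RRN3 7.41%. NOP2 shares 2550 exon bases with AC006064.6 on its own strand. Same-strand overlaps also exist for LTV1, by 511 bases with AL049844.3 and 132 with AL049844.1, and for RRS1, by 194 bases with AC009879.2. Exons of POLR1C, NOP14, RRP12, TSR1, NIP7 and NOP16 overlap genes on the opposite strand by 344 bases or more.

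MYC itself was not called in either line by the quasi-likelihood test of edgeR, adjusted by Benjamini-Hochberg over all genes. In PC3 cells MYC stood at 186, 191 and 199 CPM with vehicle and at 207, 206 and 201 with pentamidine. In DU145 cells it stood at 280.0, 279.8 and 277 CPM with vehicle and at 266, 257 and 272 with pentamidine. The groups did not overlap in either line, with pentamidine on the higher side in PC3 cells and on the lower side in DU145 cells. The log2 difference was 0.10 (SE 0.050, edgeR adjusted p = 0.130) in PC3 cells and -0.07 (SE 0.034, adjusted p = 0.108) in DU145 cells.

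In PC3 cells pentamidine lowered the mRNA of 14 of the 42 members and raised that of 3, and 25 were not called. Among all 13861 genes tested, 21.7% were called lower and 21.7% higher at the same adjusted p below 0.05. The members called lower were 3 of the 6 RNA polymerase I genes (POLR1A, POLR1B and UBTF), NCL, 5 of the 15 small subunit factors (NOL6, UTP15, UTP20, TSR1 and DDX10) and 5 of the 13 large subunit factors (BOP1, RRP1B, RRS1, GNL3 and MRTO4). The call of UTP15 was lost under 4 of 14 alternatives, among them DESeq2 (adjusted p = 0.0601), and that of POLR1A on leaving out any 1 of 3 samples. None of the 4 snoRNP core proteins was called, with log2 differences of -0.03 for the methyltransferase FBL, 0.01 for the pseudouridine synthase DKC1, -0.09 for NOP56 and -0.03 for NOP58. At an unadjusted p below 0.05, 19 members were lower and 3 higher, and DESeq2 called 13 lower and 3 higher.

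The falls in PC3 cells were moderate, and no member passed the study's limit of an absolute log2 fold change above 1 (4.75% of genes did, and 0 members at an unadjusted p below 0.05 or by DESeq2). The member median was -0.10 on the log2 scale, against 0.0046 for all genes. The vehicle and pentamidine samples did not overlap for 19 members with pentamidine lower (26.1% of all genes) and for 4 with pentamidine higher (26.1%). The sample medians of the members, as log2 difference from the vehicle mean, were -0.021, -0.0054 and 0.014 with vehicle and -0.11, -0.071 and -0.10 with pentamidine. In bulk RNA, fewer cells of a kind and less RNA per cell cannot be told apart. Without PC3 vehicle replicate 1, 19 members were lower and 3 higher, and without mitochondria-encoded genes 14 and 3.

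UTP20, a scaffold needed for early cuts of the precursor (chr12:101280109-101386616), had the largest fall in both lines. In PC3 cells it stood at 222, 231 and 223 CPM with vehicle and at 162, 158.5 and 169.7 with pentamidine. In DU145 cells it stood at 226, 224 and 220.4 CPM with vehicle and at 153, 159.5 and 174 with pentamidine. Every pentamidine sample of both lines lay below every vehicle sample. UTP20 fell by 0.46 on the log2 scale, or 27.2%, in PC3 cells (SE 0.050, edgeR adjusted p = 1.12e-06) and by 0.46, or 27.1%, in DU145 cells (SE 0.039, adjusted p = 2.25e-14).

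NOL6, another scaffold of the small subunit assembly (chr9:33461441-33473930), also fell in both lines. Its PC3 levels were 226, 219.9 and 237 CPM with vehicle and 189, 176 and 182 with pentamidine, and its DU145 levels were 350.2, 341 and 339.9 with vehicle and 244, 256 and 261 with pentamidine. The groups were fully separate in each line. The fall was 19.6% in PC3 cells (log2 -0.31, SE 0.051, edgeR adjusted p = 8.77e-05) and 26.0% in DU145 cells (log2 -0.43, SE 0.034, adjusted p = 9.18e-16).

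RRP1B, a nucleolar protein of large subunit maturation (chr21:43659548-43696079), went from 169, 161 and 158 CPM to 123, 116 and 127 in PC3 cells. In DU145 cells it went from 144, 149 and 149 CPM to 114, 118 and 125. Pentamidine samples lay below vehicle samples throughout, and the fall was 24.6% in PC3 cells (log2 -0.41, SE 0.053, edgeR adjusted p = 7.99e-06) and 19.0% in DU145 cells (log2 -0.30, SE 0.040, adjusted p = 1.95e-08).

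**Figure D1:**
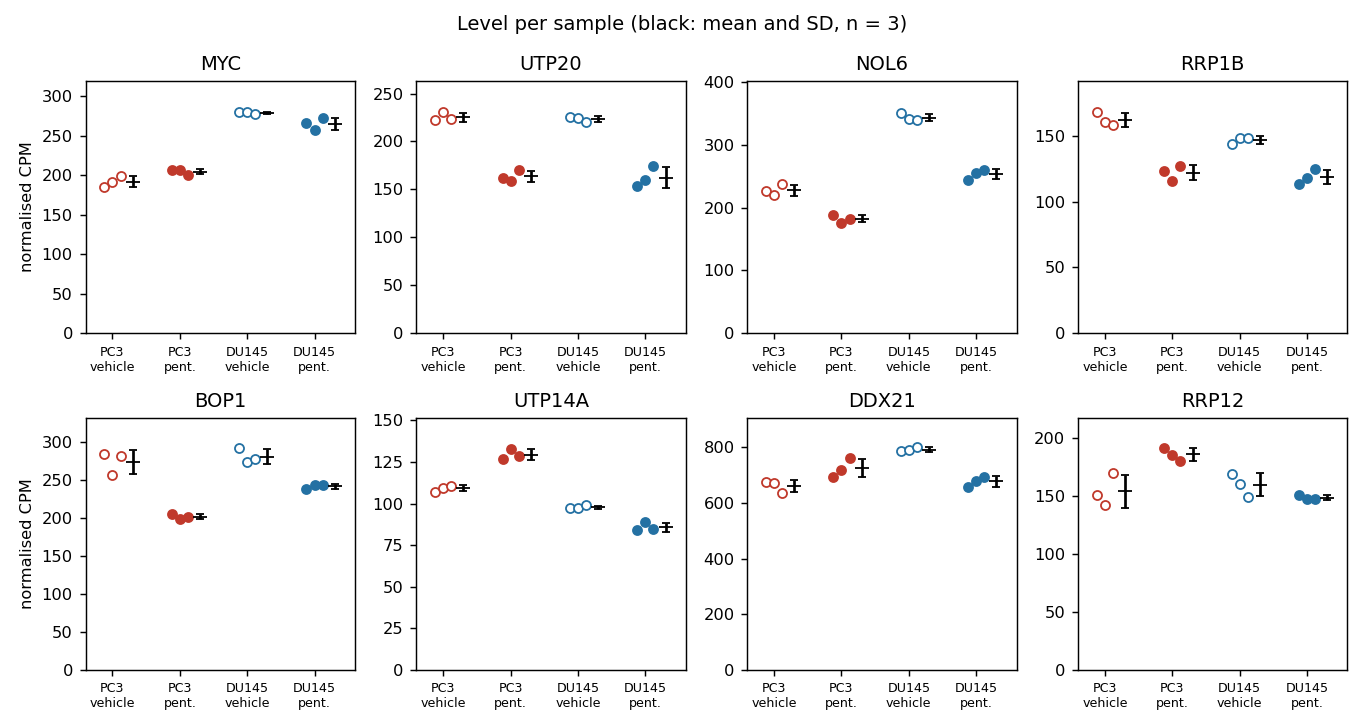
Normalised CPM of 8 members in each of the 12 samples, on linear axes from 0, with open circles for vehicle, filled circles for pentamidine (pent.), red for PC3, blue for DU145, and black bars for mean and SD (n = 3). UTP20, NOL6, RRP1B and BOP1 were lower with pentamidine in both lines, whereas UTP14A and DDX21 were higher in PC3 cells and lower in DU145 cells.

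BOP1 and MRTO4 had the other large falls of the PC3 comparison. BOP1, which works with PES1 and WDR12 in a complex that processes large subunit rRNA, stood at 284, 256 and 281 CPM with vehicle and at 205, 199 and 201 with pentamidine. MRTO4, which holds the place of a stalk protein on the immature large subunit (chr1:19251539-19260128), stood at 197, 203 and 215 CPM with vehicle and at 150.5, 155 and 155.5 with pentamidine. For both genes the groups were separate, with log2 differences of -0.44 for BOP1 (SE 0.051, edgeR adjusted p = 2.69e-06) and -0.41 for MRTO4 (SE 0.052, adjusted p = 6.00e-06). The partners of BOP1 had smaller differences in PC3 cells, -0.15 for PES1 (adjusted p = 0.0551, edgeR) and -0.13 for WDR12 (adjusted p = 0.0615).

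The 3 members that rose in PC3 cells were RRP12, UTP14A and DDX21. RRP12, a factor in the maturation and export of both subunits (chr10:97356358-97426076), stood at 150.3, 142 and 169 CPM with vehicle and at 191, 185 and 180.0 with pentamidine. UTP14A, which acts with the helicase DHX37 on the small subunit precursor (chrX:129906121-129929761), stood at 107, 109.6 and 111 CPM with vehicle and at 127, 133 and 129 with pentamidine. DDX21, a helicase that links RNA polymerase I transcription to processing (chr10:68956128-68985073), stood at 676, 672 and 636.5 CPM with vehicle and at 695, 719.9 and 760.4 with pentamidine. All 3 genes had separate groups, and the vehicle samples of RRP12 were the most scattered. The log2 rise was 0.28 for RRP12 (SE 0.061, edgeR adjusted p = 0.00156) and 0.25 for UTP14A (SE 0.052, adjusted p = 0.0008435). DDX21 rose by 0.14 (SE 0.049, edgeR adjusted p = 0.0299), a call that was lost without PC3 vehicle replicate 3 (adjusted p = 0.0892), without PC3 pentamidine replicate 2 (0.0761) or 3 (0.162) and with library size alone as the scale (0.0539).

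In DU145 cells pentamidine lowered the mRNA of 29 of the 42 members and raised that of none. Among all 14313 genes tested, 16.8% were called lower and 17.2% higher. At an unadjusted p below 0.05, 34 members were lower and 1 higher (UBTF, log2 0.07), and DESeq2 called 28 lower and 0 higher. Scaling by library size alone, which in this line turned the calls among all genes from 2459 higher and 2401 lower to 3282 higher and 1645 lower, gave 23 members lower and 3 higher (NOP56, POLR1E and UBTF). The member median was -0.18 on the log2 scale, against 0.0085 for all genes, and it was -0.13 with library size alone, where that of all genes was 0.058.

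The lower calls in DU145 cells were most frequent among the factors that build the subunits. They took in 11 of the 15 small subunit factors, 11 of the 13 large subunit factors, 3 of the 6 RNA polymerase I genes (POLR1A, POLR1B and RRN3), 2 of the 3 chaperones (NCL and NOLC1) and 2 of the 4 snoRNP core proteins (DKC1 and NOP58). The call of RRN3 was lost under 5 of 14 alternatives, among them DESeq2 (adjusted p = 0.0509), and that of NOP58 under 4. The members not called were MYC, POLR1C, POLR1E, UBTF, NPM1, FBL, NOP56, NOP14, UTP15, UTP18, RRP12, WDR12 and PPAN, with adjusted p from 0.0508 for RRP12 and 0.0516 for UTP18 to 0.924 for POLR1C (edgeR). The groups did not overlap for 32 members with pentamidine lower (22.1% of all genes) and for 2 with pentamidine higher (21.9%), POLR1E and UBTF. No member passed the limit of an absolute log2 fold change above 1, which 2.03% of genes did, nor did any at an unadjusted p below 0.05 or by DESeq2. The sample medians of the members were -0.0041, 0.014 and -0.013 with vehicle and -0.18, -0.17 and -0.17 with pentamidine. Without mitochondria-encoded genes, 30 members were lower and 0 higher.

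LTV1 and NOP16 were also among the 5 members with the largest falls in DU145 cells, with UTP20, NOL6 and RRP1B. LTV1, needed for the late small subunit precursor (chr6:143843344-143863812), stood at 35.5, 36.0 and 34.15 CPM with vehicle and at 30.1, 27.3 and 26.35 with pentamidine. NOP16, a large subunit factor (chr5:176383938-176388975), stood at 57.6, 64.1 and 55.3 CPM with vehicle and at 53.2, 47.2 and 44.1 with pentamidine. The groups of both were separate, those of NOP16 by a narrow margin. LTV1 fell by 0.33 on the log2 scale (SE 0.071, edgeR adjusted p = 0.000184) and NOP16 by 0.29 (SE 0.061, adjusted p = 0.000159). In PC3 cells LTV1 differed by -0.06 (adjusted p = 0.577, edgeR) and NOP16 by -0.21 (adjusted p = 0.0603).

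**Figure D2:**
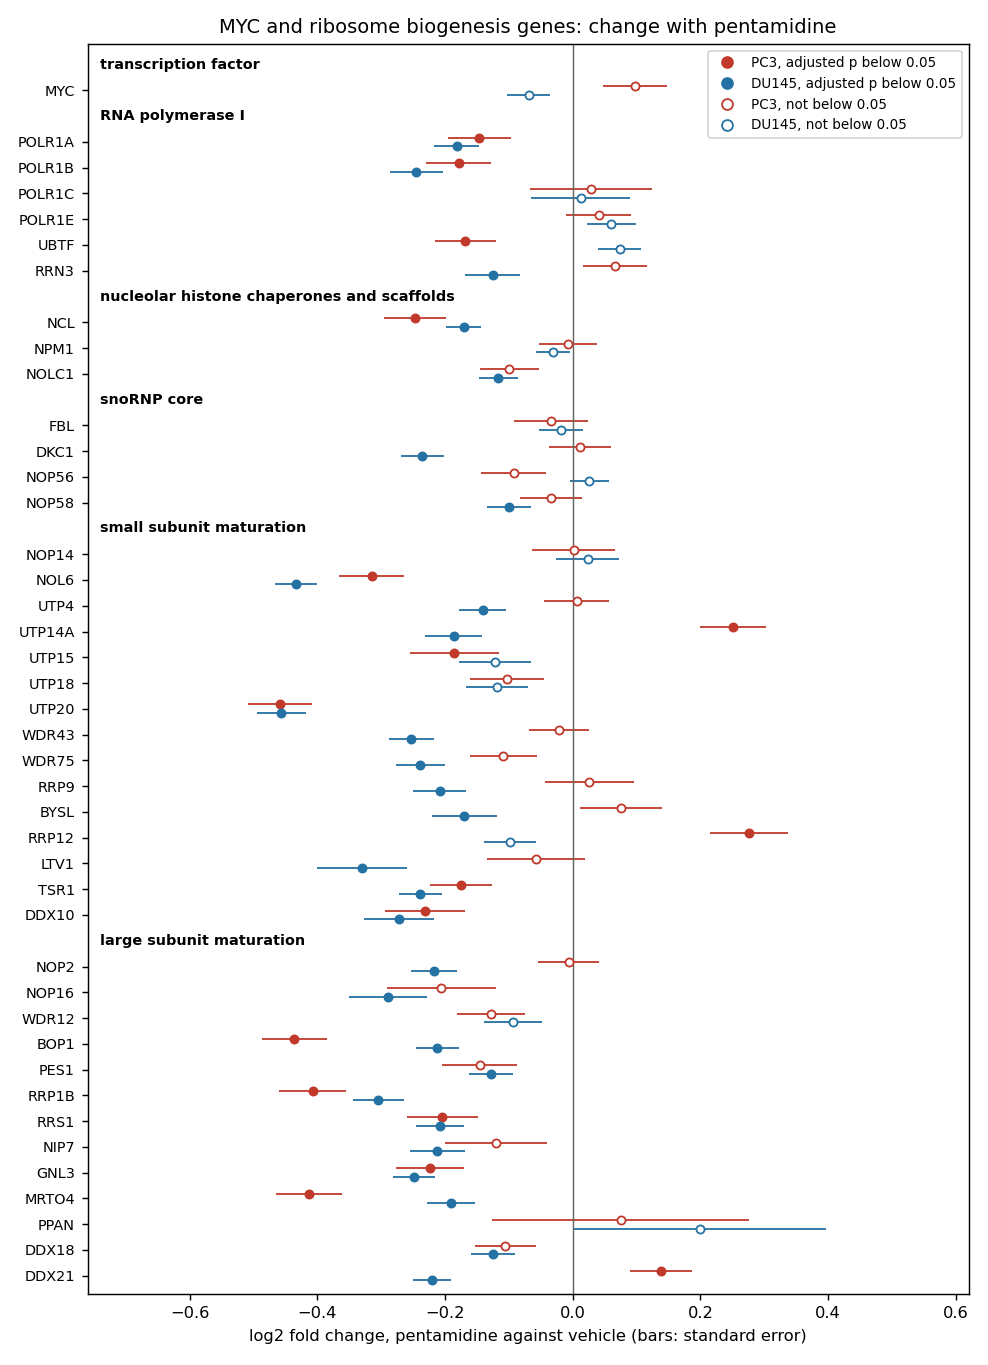
Log2 fold change of the 42 members with pentamidine against vehicle, grouped by role, in PC3 cells (red) and DU145 cells (blue), with bars for the standard error and filled points for an adjusted p below 0.05 (edgeR, 3 samples per group). In DU145 cells 29 filled points lie below 0 and none above, and in PC3 cells 14 lie below and 3 above.

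Both lines called 12 members lower, namely POLR1A, POLR1B, NCL, NOL6, UTP20, TSR1, DDX10, BOP1, RRP1B, RRS1, GNL3 and MRTO4. Each line was tested with its own vehicle samples. Among all genes tested, 21.7% were called lower in PC3 cells and 16.8% in DU145 cells. How many of all genes were called lower in both lines, or in 1 line alone, was not counted. Nucleolin, the most abundant of the 12, fell from 2292, 2056 and 2200 CPM to 1771, 1886 and 1841 in PC3 cells and from 2384, 2307 and 2357 to 2095, 2077 and 2068 in DU145 cells, without overlap. POLR1A and POLR1B, which form the catalytic core of RNA polymerase I, fell by 9.64% and 11.7% in PC3 cells and by 11.9% and 15.6% in DU145 cells. UBTF and UTP15 were called lower in PC3 cells alone, and 15 members in DU145 cells alone. The difference between the lines was itself called for UBTF and for 6 of those 15, RRN3, DKC1, WDR43, RRP9, BYSL and NOP2, in the test that follows. Of these, RRN3, RRP9 and BYSL lost that call with library size alone, with the replicate block and on leaving out any 1 of 7, 9 and 6 samples in turn, and NOP2 with library size alone. MYC, POLR1C, POLR1E, NPM1, FBL, NOP56, NOP14, UTP18, WDR12 and PPAN were called in neither.

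Whether a member responded differently in the lines was tested by the interaction of treatment and line over all 12 samples, as the PC3 response minus the DU145 response. For 10 members the difference was called positive (10.2% of the 15226 genes tested) and for 3 negative (10.3%), and the member median was 0.03 against -0.0091 for all genes. The positive ones were MYC, RRN3, DKC1, 5 small subunit factors (UTP14A, WDR43, RRP9, BYSL and RRP12), NOP2 and DDX21, and the negative ones UBTF, BOP1 and MRTO4. No member exceeded an absolute log2 difference of 1, which 2.62% of genes did, nor did any at an unadjusted p below 0.05 or by DESeq2. Scaling by library size alone left 5 positive (DDX21, DKC1, RRP12, UTP14A and WDR43) and 5 negative (UBTF, BOP1, MRTO4, NCL and NOP56), with a member median of -0.04 against -0.08 for all genes on that scale. Without PC3 pentamidine replicate 2 or DU145 vehicle replicate 2, 6 were positive, and without PC3 vehicle replicate 3 the member median was 0.05.

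UTP14A and DDX21 were called in opposite directions in the lines. UTP14A went from 97.3, 97.5 and 98.9 CPM to 83.9, 88.6 and 84.55 in DU145 cells, without overlap, a fall of 0.19 on the log2 scale (edgeR adjusted p = 0.000669). DDX21 went from 786, 789 and 801 CPM to 658, 679.5 and 695 in DU145 cells, also without overlap, a fall of 0.22 (adjusted p = 3.04e-08, edgeR). The response differed by 0.44 for UTP14A (SE 0.064, edgeR adjusted p = 8.84e-06) and by 0.36 for DDX21 (SE 0.056, adjusted p = 2.10e-05).

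RRP12 and UBTF were called in PC3 cells only, and for both the difference between the lines was itself called. RRP12 stood at 169, 160.4 and 149 CPM with vehicle and 150.6, 147 and 147.5 with pentamidine in DU145 cells, where the groups overlapped and its log2 difference was -0.10 (edgeR adjusted p = 0.0508). Under RLE normalisation (adjusted p = 0.0403, edgeR) and without mitochondria-encoded genes (0.0486) RRP12 was called lower there, as it was under 4 more alternatives. UBTF went from 219, 220.4 and 223.5 CPM to 193, 200.2 and 195 in PC3 cells, where the groups were separate, a fall of 0.17 (adjusted p = 0.00866, edgeR). In DU145 cells UBTF stood at 241, 230.3 and 239 CPM with vehicle and 252, 244 and 249 with pentamidine, where the log2 difference was 0.07 (adjusted p = 0.0917, edgeR). The response differed by 0.38 for RRP12 (SE 0.077, edgeR adjusted p = 0.000678) and by -0.24 for UBTF (SE 0.055, adjusted p = 0.00205).

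The falls of BOP1 and MRTO4 were deeper in PC3 cells. In DU145 cells BOP1 went from 291.5, 273 and 277 CPM to 238, 243 and 243, and MRTO4 from 178, 177 and 168 to 158, 148 and 150.5, with separate groups for both. The response differed by -0.22 for BOP1 (SE 0.062, edgeR adjusted p = 0.00920) and by -0.22 for MRTO4 (SE 0.063, adjusted p = 0.0121), and the call of MRTO4 was lost without DU145 vehicle replicate 3 (adjusted p = 0.0624). The response of MYC differed by 0.17 (SE 0.057, adjusted p = 0.0389, edgeR). However, that call was lost with library size alone (adjusted p = 0.236), without a filter on low counts (0.0647) and with the replicate block. It was also lost on leaving out any 1 of 9 samples (0.0501 to 0.124). UTP20, with the largest fall in each line, had a difference of -0.0018 (95% interval -0.14 to 0.13, adjusted p = 0.9996, edgeR).

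**Figure D3:**
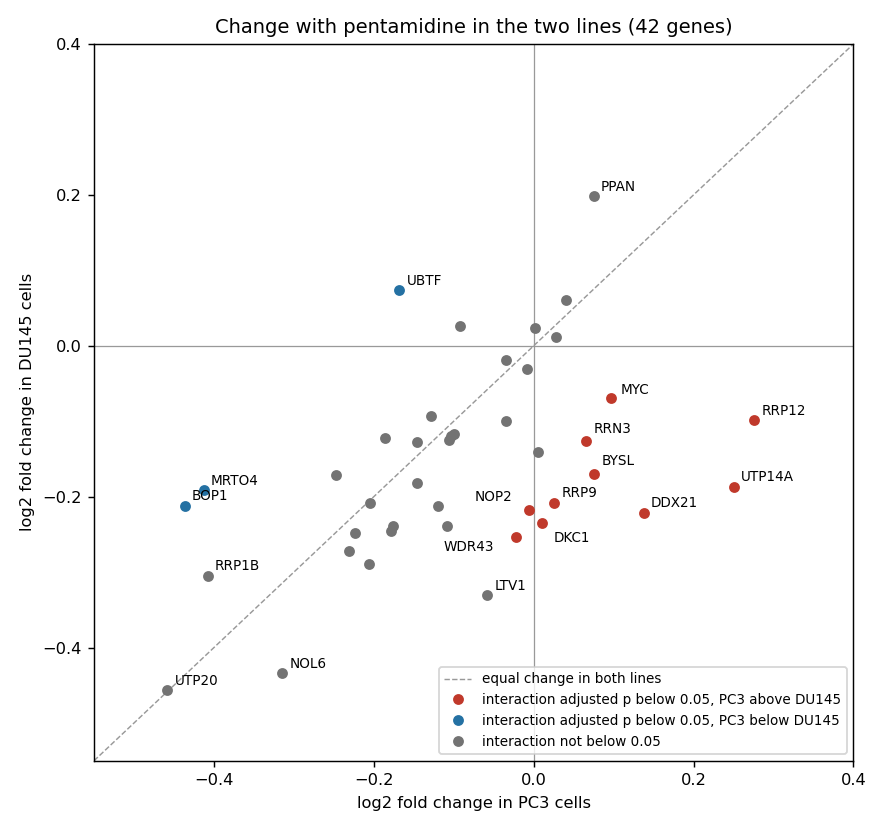
Log2 fold change of each of the 42 members with pentamidine in PC3 cells (x axis) against DU145 cells (y axis), with red and blue points where the interaction had an adjusted p below 0.05 (edgeR) and a dashed line for equal change. UTP20 lies on the line at -0.46 in both, and UTP14A, DDX21 and RRP12 lie to the right of 0 and below it.

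In vehicle-treated cells, MYC mRNA was lower in PC3 than in DU145 cells, with a log2 difference of -0.56 (SE 0.046, edgeR adjusted p = 1.87e-08) and no overlap of the samples. Of the 42 members, 17 were called lower in PC3 cells (33.8% of the 14394 genes tested) and 10 higher (31.5%). The member median was -0.09, against -0.01 for all genes, and -0.0059 against 0.07 with library size alone, where 12 members were called lower and 12 higher. Without PC3 vehicle replicate 1 or 2 the member median was -0.056 or -0.054, and without DU145 vehicle replicate 1 the higher calls were 6. By role, the lower calls were MYC, POLR1E, UBTF, NCL, NPM1, FBL, NOP56, 4 small subunit factors (NOL6, WDR43, RRP9 and TSR1) and 6 large subunit factors (NOP16, PES1, RRS1, GNL3, DDX18 and DDX21). The higher calls were POLR1A, RRN3, DKC1, 3 small subunit factors (NOP14, UTP14A and DDX10) and 4 large subunit factors (WDR12, RRP1B, NIP7 and MRTO4). Of 14 alternatives, POLR1A and RRP1B each lost their call under 7, UBTF under 5, and NCL and NPM1 each under 4.

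The members with the largest deficit in PC3 cells were RRS1, RRP9 and GNL3. RRS1, which helps to bring the 5S particle into the large subunit, stood at 82.5, 82.4 and 81.3 CPM in PC3 and at 167, 170.5 and 168 in DU145 cells. RRP9, a protein of the U3 snoRNP (chr3:51933430-51941941), stood at 58.8, 62.1 and 70.4 CPM in PC3 and at 129, 126 and 119 in DU145 cells. GNL3, the nucleolar GTPase nucleostemin (chr3:52681156-52694492), stood at 168, 167 and 171 CPM in PC3 and at 320.1, 330.2 and 322 in DU145 cells. No sample of the lines overlapped for these genes, and the log2 differences were -1.06 for RRS1 (SE 0.048, edgeR adjusted p = 9.66e-12), -0.99 for RRP9 (SE 0.066, adjusted p = 1.24e-09) and -0.97 for GNL3 (SE 0.044, adjusted p = 1.25e-11). RRS1 was the 1 member past an absolute log2 difference of 1, which 19.2% of genes passed, and it was joined by RRP9 without PC3 vehicle replicate 3 or without DU145 vehicle replicate 3.

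RRN3, NOP14 and NIP7 were the members most in excess in PC3 cells. RRN3 (chr16:15060022-15094317) stood at 147, 156 and 152 CPM in PC3 and at 97.4, 104 and 101 in DU145 cells. NOP14, of the small subunit assembly (chr4:2937933-2963385), stood at 81.9, 89.5 and 93.4 CPM in PC3 and at 66.8, 66.6 and 67.7 in DU145 cells. NIP7, which acts in precursor processing (chr16:69339430-69343111), stood at 126, 164 and 161 CPM in PC3 and at 112, 123 and 114 in DU145 cells. The lines did not overlap, although PC3 vehicle replicate 1 came near the DU145 samples for NIP7. The log2 differences were 0.56 for RRN3 (SE 0.051, edgeR adjusted p = 6.63e-08), 0.37 for NOP14 (SE 0.061, adjusted p = 4.94e-05) and 0.35 for NIP7 (SE 0.081, adjusted p = 0.00131).

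**Figure D4:**
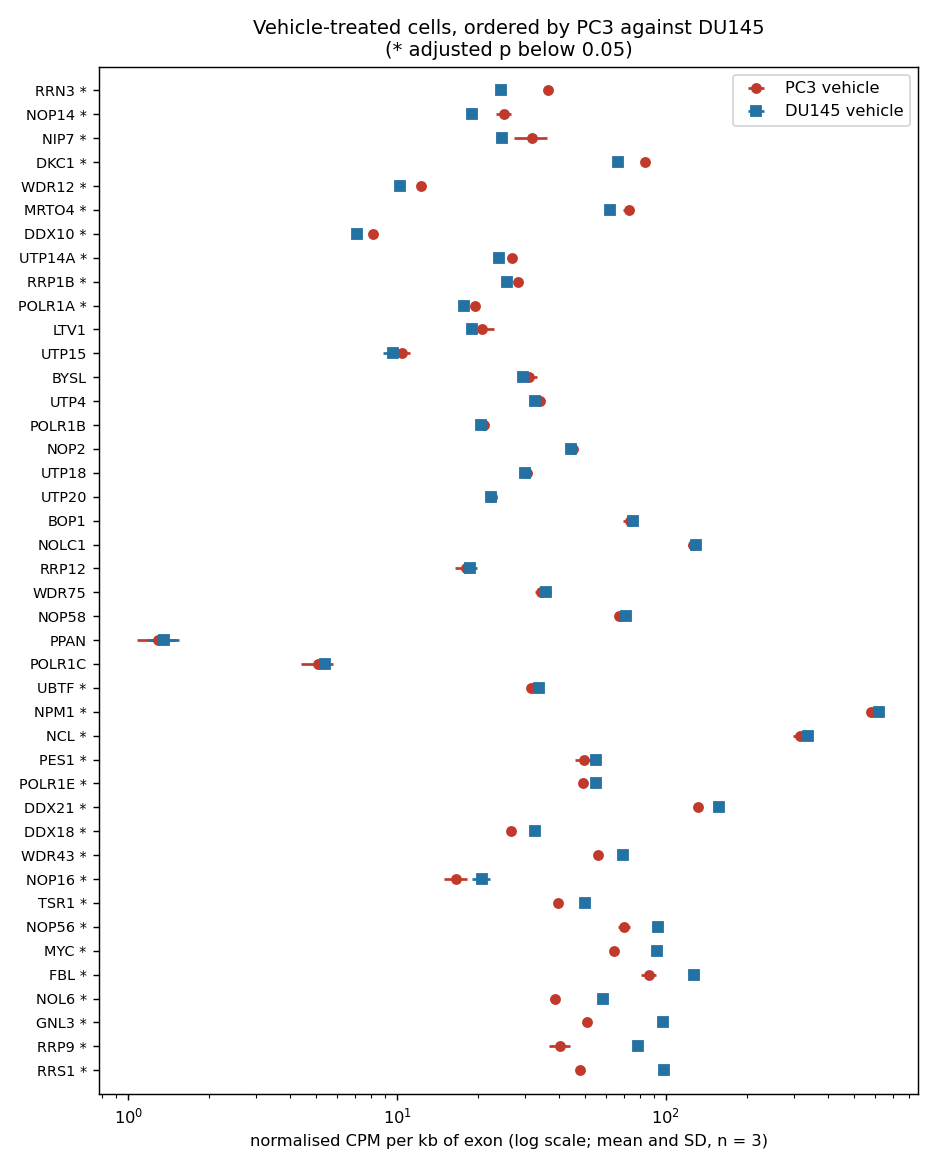
Mean level of the 42 members in vehicle-treated PC3 cells (red circles) and DU145 cells (blue squares) in normalised CPM per kb of exon on a log axis, with SD (n = 3), ordered by the difference between the lines, and with an asterisk for an adjusted p below 0.05 (edgeR). RRN3 heads the members higher in PC3 cells, and RRS1, RRP9 and GNL3 close the order as those most below DU145 cells.

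The calls were also counted by whether the promoter held the E-box. In PC3 cells 4 of the 16 members with the motif and 7 of the 17 without it were called lower, where 21.7% of all genes were, with median log2 changes of -0.03 and -0.13. In DU145 cells 13 of the 16 and 10 of the 17 were called lower, where 16.8% of all genes were, with medians of -0.20 and -0.17. These counts are a description and were not tested.

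The other genes of the pathway came from 7 further lists of 165 textbook members, written here and not taken from a published set. In PC3 cells 69 of the 162 tested were called lower and 23 higher, with a median log2 change of -0.14. In DU145 cells 82 of 164 were lower and 12 higher, with a median of -0.14. Of all genes, 21.7% were lower and 21.7% higher in PC3 cells, and 16.8% lower and 17.2% higher in DU145 cells. Among 41 other small subunit factors, 17 were lower and 5 higher in PC3 cells and 25 lower and 1 higher in DU145 cells. NOL11, which supports rDNA transcription, fell by 0.44 in PC3 cells (SE 0.055, edgeR adjusted p = 5.67e-06), and UTP25, listed under its older symbol DIEXF, by 0.54 in DU145 cells (SE 0.053, adjusted p = 3.97e-12). Of 49 other large subunit factors, 18 were lower and 8 higher in PC3 cells and 29 lower and 3 higher in DU145 cells. RSL24D1, a placeholder on the large subunit precursor, was called higher in both lines. It rose from 114, 135 and 115 CPM to 237, 241 and 238 in PC3 cells (log2 0.98, SE 0.063, edgeR adjusted p = 1.54e-09) and from 97.7, 102 and 99.4 to 152, 146 and 150.3 in DU145 cells (log2 0.59, SE 0.040, adjusted p = 7.07e-18). NOP53, which recruits the exosome to that precursor, rose in DU145 cells from 177, 167 and 162 CPM to 241, 248 and 247 (log2 0.54, SE 0.036, edgeR adjusted p = 3.39e-18).

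Of 10 other RNA polymerase I genes, 5 were lower and 1 higher in PC3 cells and 4 lower and 1 higher in DU145 cells. The higher one was in each line POLR1D, a subunit shared with RNA polymerase III, by 0.44 in PC3 (SE 0.057, edgeR adjusted p = 8.41e-06) and 0.25 in DU145 cells (SE 0.052, adjusted p = 0.000141). The subunit POLR1G, listed as CD3EAP, fell by 0.74 in PC3 cells (SE 0.14, edgeR adjusted p = 0.00036). Among 11 other snoRNP genes, 2 (18.2%) were lower and 1 higher in PC3 cells, and 3 (27.3%) lower and 0 higher in DU145 cells. Of 14 genes of the RNA exosome, which trims precursors, 7 were lower and 2 higher in PC3 cells. In DU145 cells 4 were lower and 1 higher. The shares of all genes were 21.7% lower and 21.7% higher in PC3 cells, and 16.8% lower and 17.2% higher in DU145 cells. EXOSC9, an exosome core subunit, fell by 0.53 in PC3 (SE 0.066, edgeR adjusted p = 5.68e-06) and by 0.32 in DU145 cells (SE 0.059, adjusted p = 1.47e-05).

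In the network around MYC, 4 of 9 genes tested were called higher and 2 (22.2%) lower in PC3 cells. In DU145 cells 4 of 11 were higher and 3 (27.3%) lower. Among all genes, 21.7% were higher and 21.7% lower in PC3 cells, and 17.2% and 16.8% in DU145 cells. MXD4, MXI1, MNT, MXD1 and MXD3 encode proteins that pair with MAX in place of MYC and repress E-box genes. MXD4 went from 27.5, 26.4 and 27.6 CPM to 52.1, 52.7 and 53.2 in PC3 cells and from 44.8, 46.1 and 46.3 to 83.2, 79.75 and 77.5 in DU145 cells, without overlap. The log2 rise of MXD4 was 0.96 in PC3 cells (SE 0.067, edgeR adjusted p = 4.52e-09) and 0.81 in DU145 cells (SE 0.052, adjusted p = 7.32e-19). MXI1 rose by 0.72 and 0.64 and MNT by 0.41 and 0.24 in PC3 and DU145 cells. MXD1 rose by 1.02 in PC3 cells (SE 0.16, edgeR adjusted p = 6.92e-05) and differed by 0.02 in DU145 cells (adjusted p = 0.951). MXD3, of the same family, fell by 0.63 in PC3 cells (edgeR adjusted p = 2.23e-05) and rose by 0.52 in DU145 cells (adjusted p = 3.05e-07), a difference between the lines of -1.15 (SE 0.12, adjusted p = 2.52e-08). MAX differed by 0.16 in PC3 cells (adjusted p = 0.115, edgeR) and by -0.08 in DU145 cells (adjusted p = 0.2996). Other genes of this network went down. The lower calls in DU145 cells were MGA at -0.22, MLXIP at -0.18 and MLX at -0.13 (edgeR, adjusted p of 9.2e-05, 0.0015 and 0.0485). MLXIP was called lower in PC3 cells as well, at -0.23 (edgeR, adjusted p of 0.0025). MGA and MLX were not called there, at -0.17 and 0.12 (edgeR, adjusted p of 0.0687 and 0.102). MXI1, MNT, MXD3, MGA, MLXIP and MLX were named after their values were seen.

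Of 28 genes listed as MYC targets outside ribosome production, 18 were lower and 2 higher in PC3 cells, with a median log2 change of -0.25. That was 64.3% lower, against 21.7% of all genes. In DU145 cells 14 were lower and 2 higher, with a median of -0.15. The largest fall in PC3 cells was that of MCM4, a subunit of the replicative helicase, from 424, 409 and 426 CPM to 198, 190.1 and 195.5 (log2 -1.11, SE 0.047, edgeR adjusted p = 5.06e-12). In DU145 cells it was that of SLC19A1, the reduced folate carrier, by 0.35 (SE 0.047, edgeR adjusted p = 2.14e-08), followed by LDHA, the lactate dehydrogenase subunit, by 0.34 (SE 0.027, adjusted p = 3.11e-15).

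**Figure D5:**
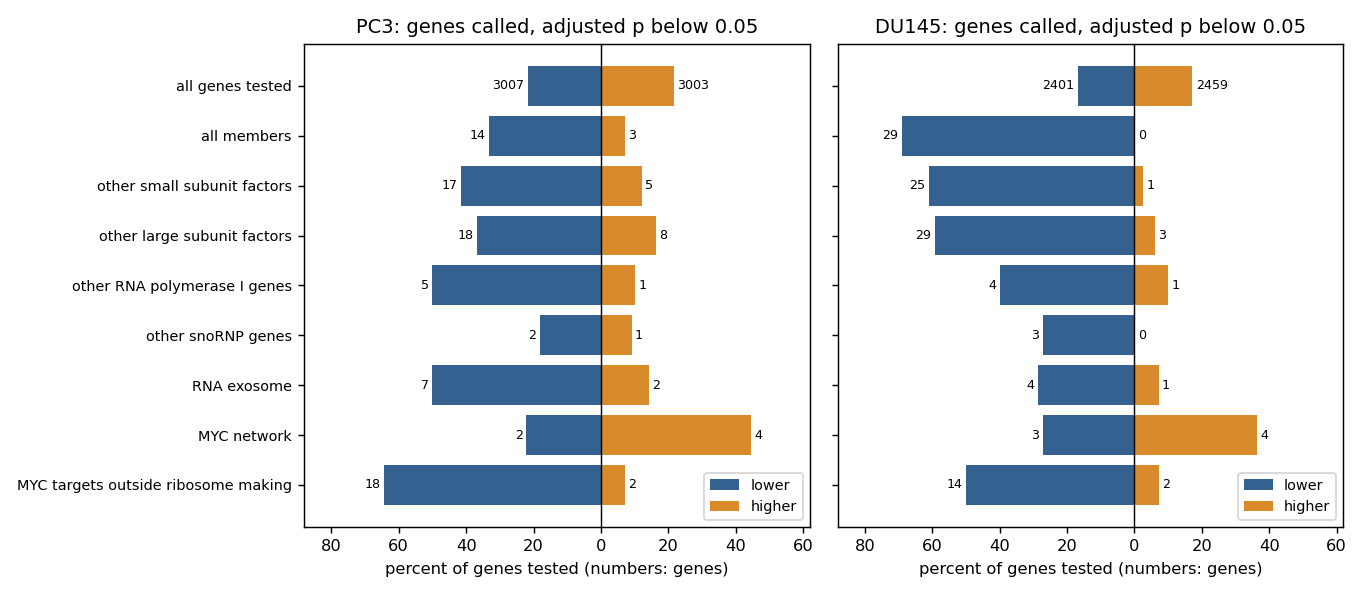
Percent of genes called lower (blue, to the left) and higher (orange, to the right) at an adjusted p below 0.05 (edgeR) among all genes tested, the 42 members and the 7 further lists, in PC3 and DU145 cells, with numbers of genes beside the bars. The members were lower in 33.3% and 69.0% of cases in PC3 and DU145 cells, against 21.7% and 16.8% of all genes.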

How the data were processed

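Poly(A) RNA of 12 samples was sequenced for the study with paired ends on an Illumina instrument. The submitters' processing notes name HISAT2 2.1.0, DESeq 1.18.1 and GRCh38, while the counting program and strand setting are not given in the sources used here. The counts of reads per gene were deposited by the authors without normalisation, for 33639 rows, of which 44 without an Ensembl identifier were left out and repeated entries were merged to 32077 genes. A further table of scaled values and tables with the fold changes and p-values of the authors' own comparisons were not used. Of these genes, 30933 had the same position in GENCODE 29, whose exons gave the lengths.

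Counts were tested with edgeR 4.0.16 (R 4.3.3; TMM, filterByExpr at a minimum count of 10, glmQLFit and glmQLFTest) and Benjamini-Hochberg adjustment over all genes tested, by line, for the interaction and between vehicle groups. A gene was called at an adjusted p below 0.05. The scripts were tested on simulated counts. Alternatives were DESeq2 1.42.0, RLE, library size alone, no mitochondria-encoded genes, other filters, a replicate block, 1 fit of all samples, an adjusted p below 0.01 and each sample left out. Intervals cover the spread between samples, and reads carry no molecular identifiers. Full values were given for MYC, for up to 5 members in each direction with the largest called change per line, for the 3 of smallest interaction p and of largest line difference in each direction, and for up to 2 genes per further list. The members and lists were chosen with earlier results of these data known. Every pair of samples of a group differed by more than sampling noise. E-boxes were searched as CACGTG on both strands.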

Additional observations from a re-analysis of the deposited data

Results flagged for a closer look

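The response to pentamidine differed between PC3 and DU145 cells for 13 of the 42 members. This was tested by the interaction term of edgeR's quasi-likelihood test over all 12 samples, at an adjusted p below 0.05. For 10 members the difference was positive and for 3 negative. Among all 15226 genes tested, 10.2% were called positive and 10.3% negative. Values are listed as the PC3 response minus the DU145 response on the log2 scale. The difference was 0.44 for UTP14A, 0.38 for RRP12, 0.36 for DDX21, 0.25 for DKC1 and 0.23 for WDR43, which were also called with library size alone as the scale. It was 0.25 for BYSL, 0.24 for RRP9, 0.21 for NOP2, 0.19 for RRN3 and 0.17 for MYC. The members with the more negative response in PC3 cells were UBTF at -0.24, BOP1 at -0.22 and MRTO4 at -0.22, which were called on that scale too. The calls of BYSL, RRP9, NOP2, RRN3 and MYC were lost on it. DKC1, the pseudouridine synthase of the snoRNP core, stood at 339, 356 and 358 CPM with vehicle and at 340.4, 359 and 357 with pentamidine in PC3 cells. In DU145 cells DKC1 went from 275.5, 285.5 and 278 CPM to 238, 239.8 and 232, without overlap. NOP2, a methyltransferase of large subunit rRNA, stood at 212, 208 and 214 CPM with vehicle and at 207, 214 and 207 with pentamidine in PC3 cells. In DU145 cells NOP2 went from 209, 208 and 208 CPM to 178, 176 and 182, without overlap.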

How the results depend on the processing

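No called member changed direction under any alternative. In PC3 cells 10 to 19 members were lower and 2 to 3 higher with each sample left out, and in DU145 cells 27 to 31 lower and 0 higher. With library size alone, 3 members were higher in DU145 cells and the member median was -0.13, 5 interactions were positive and 5 negative with a median of -0.038, and between vehicle groups the median was -0.0059 and 0 members passed an absolute log2 difference of 1. That scale also turned the interaction calls of all genes from 1546 positive and 1566 negative to 1128 and 2265, and it moved the median of all genes by less than 0.1. At an adjusted p below 0.01, 6 interactions were positive and 6 members were higher in vehicle-treated PC3 cells. With at least 10 counts in every sample, 2 members (RRP9 and RRS1) passed an absolute log2 difference of 1 between vehicle groups, and with all 12 samples in 1 fit that comparison had a median of -0.061. With each sample left out, positive interactions ranged from 6 to 10 (6 without PC3 pentamidine replicate 2 or DU145 vehicle replicate 2) and negative ones from 2 to 3, with medians from 0.028 to 0.051 (the highest without PC3 vehicle replicate 3). Between vehicle groups, higher calls ranged from 6 (without DU145 vehicle replicate 1) to 10, members past an absolute log2 difference of 1 from 1 to 2 (2 without replicate 3 of either vehicle group), and medians from -0.080 to -0.054. The cause was not tested. The replicate numbers did not pair the samples (correlations of -0.073 to 0.026 between same-numbered samples), and with the replicate block 6 interactions were positive and DDX21 was not called in PC3 cells (adjusted p = 0.0590, edgeR). Depth limited PPAN most, with 622 counts in all.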
